A study of Mus musculus with 12 samples.

Results

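The genes described are the murine major histocompatibility complex (MHC) class II genes and the genes that act with them, chosen by name. They are the chains H2-Aa, H2-Ab1 and H2-Eb1, the H2-DM chains H2-DMa, H2-DMb1 and H2-DMb2, the invariant chain Cd74 and the transactivator Ciita, and every probe whose platform symbol is one of these was taken. They are 8 of the 19057 gene symbols on the array, and 7 of the 8819 genes detected widely enough to test. They were picked with the outcome of the leptin comparison known, from the same arrays, so their differences between groups are given as a description without a test. Messenger RNA was measured in liver of insulin-deficient mice on a mixed strain background, on Illumina Mouse-6 V2 BeadChips. In the leptin group the hormone, which fat tissue makes and which acts largely in the brain, was infused into a brain ventricle (icv) at 25 ng in 0.11 µL per hour, and livers were taken on day 10. The PBS group received phosphate-buffered saline icv. Each group had 6 arrays, numbered 1 to 6, and all 12 came from insulin-deficient animals, so no array shows liver with insulin. How the deficiency was produced, and the sex and age of the mice, are not stated in the labels used here. The labels call each array a separate sample without tying it to a mouse, so the spread between arrays may be partly technical, and the number of arrays limits the precision.

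Class II molecules are surface proteins made of an alpha and a beta chain that present peptides from engulfed or endosomal proteins to CD4 T cells. Newly made chains are held by the invariant chain, which fills the peptide groove and steers the complex to endosomes, where cathepsins trim it and H2-DM exchanges the remaining fragment for a peptide. Transcription of these genes depends on Ciita, which interferon gamma induces, in part through Irf1, and which binds no DNA itself but docks on factors at the X and Y boxes of their promoters. In liver, Kupffer cells, dendritic cells, B cells and sinusoidal endothelium can carry class II, and resting hepatocytes carry little or none.

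Promoters are shown because the X and Y boxes are what the members are known to share. RefSeq tables of mouse build GRCm38.p6, made from the C57BL/6J reference and not from the mixed background studied, held promoter windows for 5 of the 8 members, covering 250 bases before to 50 bases after each start. H2-Aa lies on the minus strand at chr17:34287774-34288073, H2-Eb1 on the plus strand at chr17:34305617-34305916, H2-DMb1 on the plus strand at chr17:34152941-34153240 and H2-DMb2 on the plus strand at chr17:34144999-34145298. The table's start for H2-DMb2 lies inside the annotated gene interval. Each is written 5′ to 3′ on the gene's strand, and capitals mark the Y box letters (CTGATTGG, or its core CCAAT read on either strand as ATTGG), the TGACG element with its palindrome, and the X box letters.
H2-Aa: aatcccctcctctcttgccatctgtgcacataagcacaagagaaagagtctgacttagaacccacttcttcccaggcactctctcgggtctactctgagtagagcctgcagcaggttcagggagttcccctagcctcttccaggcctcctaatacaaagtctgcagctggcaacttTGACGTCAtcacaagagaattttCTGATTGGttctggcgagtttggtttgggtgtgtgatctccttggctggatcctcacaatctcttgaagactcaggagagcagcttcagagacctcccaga
H2-Eb1: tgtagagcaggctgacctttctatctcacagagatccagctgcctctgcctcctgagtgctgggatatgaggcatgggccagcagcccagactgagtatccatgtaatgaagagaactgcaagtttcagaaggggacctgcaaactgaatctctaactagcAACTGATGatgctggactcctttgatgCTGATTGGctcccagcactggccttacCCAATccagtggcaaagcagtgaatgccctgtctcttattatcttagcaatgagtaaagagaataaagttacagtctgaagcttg
H2-DMb1: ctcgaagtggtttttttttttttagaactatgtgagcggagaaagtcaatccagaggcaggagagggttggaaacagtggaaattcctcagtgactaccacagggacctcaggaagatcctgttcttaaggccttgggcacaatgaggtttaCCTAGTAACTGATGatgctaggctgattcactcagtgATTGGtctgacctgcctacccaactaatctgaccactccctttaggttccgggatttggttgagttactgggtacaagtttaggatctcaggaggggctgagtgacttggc
H2-DMb2: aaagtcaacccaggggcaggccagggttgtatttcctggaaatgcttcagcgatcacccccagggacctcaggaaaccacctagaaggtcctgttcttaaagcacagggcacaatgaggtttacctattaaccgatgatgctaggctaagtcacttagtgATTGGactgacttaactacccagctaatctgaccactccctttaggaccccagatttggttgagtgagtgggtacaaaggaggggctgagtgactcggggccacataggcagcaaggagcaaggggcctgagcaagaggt
CTGATTGG began 51 bases before the start in H2-Aa and 62 bases before it in H2-Eb1, and 4.1% of the 32851 windows in the table held it on either strand. The core CCAAT, which CTGATTGG contains on its other strand, stood 61 bases before the start in H2-DMb1 and 90 before it in H2-DMb2, and H2-Eb1 had another copy at 35. That core was in 37.4% of all windows. The X box pattern, searched with free positions between its fixed letters, occurred in H2-DMb1 at 98 bases before the start and in 0.237% of all windows. Its inner part AACTGATG, looked for after the sequences had been seen, stood in H2-Eb1 at 89 bases before the start and was in 0.776% of windows. TGACG, the first letters of a cyclic AMP response element, began 74 bases before the start of H2-Aa and was in 20.8% of windows. The interferon element TTCNNNGAA was matched in H2-DMb2 alone among the members' windows (218 bases before the start, 8.3% of all windows), and the core of the interferon-stimulated response element in none of them (3.44%). The H2-DMa windows, of which the table had 2, held only CCAAT, at 198 bases in 1 of them. The window with that match, on the plus strand at chr17:34125268-34125567, lies inside the annotated gene interval. The H2-DMb1 and H2-DMb2 windows aligned with 215 identical and 40 mismatched bases, where the H2-Aa and H2-Eb1 windows aligned with 173 identical bases. H2-DMb1 and H2-DMb2 are near copies of each other, so a probe for one may also take up transcript of the other. This was not tested, as transcript and probe sequences were not aligned. These matches are letters in a reference window and were not measured as bound sites.

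The levels below are background-corrected, quantile-normalized intensities on the log2 scale, where an offset of 16 makes a fold difference understate the change of dim genes. A probe counts as detected on an array where its detection p lies under 0.01. All 7 tested members had higher intensity with leptin, and for each of them every leptin array lay above every PBS array. The differences, leptin minus PBS, ran from 1.77 to 2.58 with a median of 2.31, against a median of 0.0039 over all genes tested. All 7 passed an adjusted p of 0.05, as did 16.7% of all genes, and 8.31% of all genes passed in the upward direction. The groups were separated upward in 3.15% of all genes. Because the members were picked from this contrast, nothing is read from these counts.

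H2-Ab1, the beta chain of the I-A molecule (chr17:34263227-34269418), had 11.19, 11.56, 11.34, 12.62, 12.50 and 11.37 on leptin arrays 1 to 6, against 8.43, 8.54, 10.16, 8.80, 9.82 and 10.07 on PBS arrays 1 to 6. Leptin 4 and 5 were the highest of their group, and PBS 3, 5 and 6 lay above PBS 1, 2 and 4. The means were 11.76 ± 0.63 with leptin and 9.30 ± 0.80 with PBS (SD, n = 6 each), a difference of 2.46 ± 0.36 (SE) or 5.5-fold. H2-Aa, the alpha chain that pairs with it (chr17:34282744-34287823), had 8.76, 8.57, 8.46, 9.55, 9.38 and 8.47 on the leptin arrays and 5.53, 5.68, 7.08, 6.10, 6.97 and 7.27 on the PBS arrays. The same leptin and PBS arrays were high, and 1.2 separated the lowest leptin array from the highest PBS array, the widest gap among the members. Its means of 8.87 ± 0.48 with leptin and 6.44 ± 0.76 with PBS differed by 2.43 ± 0.32, which is 5.39-fold.

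H2-Eb1, the beta chain of the I-E molecule (chr17:34305867-34316674), had 10.19, 10.25, 9.99, 11.61, 11.47 and 10.10 with leptin, against 6.89, 7.49, 8.84, 7.5, 8.70 and 8.71 with PBS. Leptin 4 and 5 again led their group, and PBS 1 was the lowest array. The means of 10.60 ± 0.73 with leptin and 8.02 ± 0.83 with PBS differed by 2.58 ± 0.39, or 5.99-fold, the greatest difference among the members and the 16th of 8819 genes in descending order. H2-Ea, the alpha chain of I-E, was detected on 0 of 12 arrays, and the RefSeq table lists it as a transcribed pseudogene in the C57BL/6J reference.

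Cd74, the invariant chain (chr18:60803849-60812652), had 11.82, 11.69, 12.01, 13.12, 12.97 and 12.02 with leptin, against 9.08, 9.30, 11.02, 9.61, 10.10 and 10.66 with PBS. The highest PBS array, PBS 3, stood 0.67 below the lowest leptin array. Mean Cd74 was 12.27 ± 0.61 with leptin and 9.96 ± 0.77 with PBS, a difference of 2.31 ± 0.35 or 4.96-fold. The lowest and highest PBS arrays were themselves 3.86-fold apart, for Cd74 as for H2-Eb1.

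H2-DMa, the alpha chain of the peptide exchanger (chr17:34119693-34139101), had 8.57, 8.29, 8.38, 9.94, 9.16 and 7.92 with leptin, against 6.27, 6.61, 7.40, 6.08, 7.31 and 7.16 with PBS. Here leptin 4 stood alone at the top and the groups came closest, 0.52 apart. The difference was 1.91 ± 0.33 (8.71 ± 0.73 with leptin, 6.80 ± 0.56 with PBS), or 3.75-fold. H2-DMb1, one of its beta chains (chr17:34153191-34160229), had 8.29, 8.29, 8.22, 9.67, 9.01 and 8.01 with leptin, against 6.41, 6.55, 7.02, 5.95, 7.08 and 6.93 with PBS, and PBS 4 was the lowest array. Its difference was 1.92 ± 0.28 (8.58 ± 0.63 with leptin, 6.66 ± 0.44 with PBS), or 3.80-fold.

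H2-DMb2, the other beta chain (chr17:34143229-34151553), had 7.99, 7.47, 7.40, 9.22, 8.78 and 7.47 with leptin, against 6.22, 6.17, 6.54, 5.58, 6.73 and 6.5 with PBS. Again leptin 4 and 5 were highest and PBS 4 lowest. The difference was 1.77 ± 0.31 (8.06 ± 0.78 with leptin, 6.29 ± 0.40 with PBS), or 3.40-fold, the smallest among the tested members. The other H2-DMb2 probe was detected on 0 of 12 arrays. Ciita (chr16:10480014-10531064) had 5.06, 4.80, 5.08, 6.71, 5.88 and 4.67 with leptin, against 4.36, 4.31, 4.44, 4.44, 4.44 and 4.6 with PBS, on the brighter of its probes. It was detected on leptin 4 and leptin 5 and on 0 PBS arrays, too few for the test, and the other Ciita probe on 0 of 12. The 2 arrays on which Ciita was detected are those on which the other members were highest. It was not detected on the 10 remaining arrays, so no fold difference is given for Ciita.

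**Figure D1:**
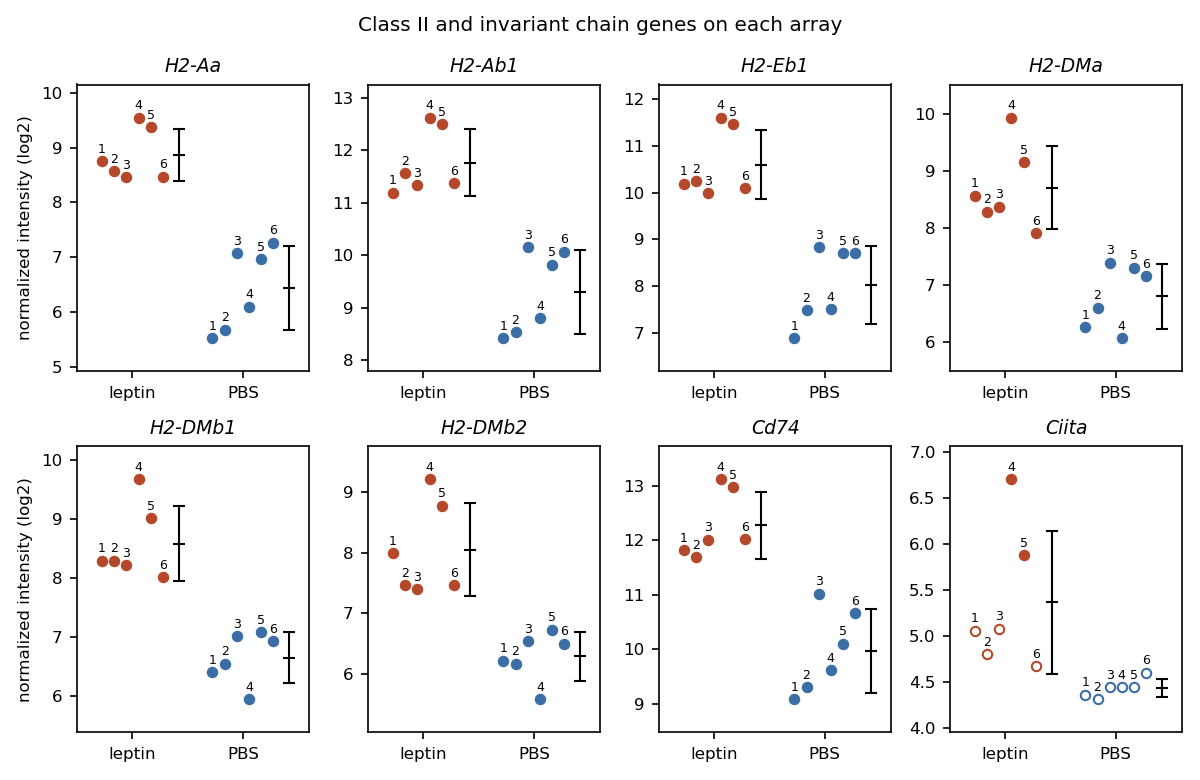
Normalized intensity (log2) of each member on the 6 leptin arrays (red) and the 6 PBS arrays (blue), with array numbers beside the points and the mean ± SD to the right of each group; each panel has its own axis, open points are arrays on which the probe was not detected, and genes are shown by their brightest probe. Leptin 4 and 5 top their group in every panel, and in the 7 tested members no PBS point reaches the lowest leptin point.

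Of the 15 probes of the 8 genes, 12 were detected on at least 3 arrays, and all 12 were higher with leptin, by 1.77 to 2.58. With each probe tested singly all 12 passed, as did 7.45% of 13068 probes in the upward direction, and again nothing is read from that. The 3 H2-Ab1 probes differed by 2.46 ± 0.36, 2.29 ± 0.37 and 2.29 ± 0.37, and the 3 Cd74 probes by 2.31 ± 0.35, 2.24 ± 0.36 and 2.47 ± 0.36. These errors measure spread between arrays, which probes of a gene share, so agreement between probes was not tested. The 2 H2-DMa probes gave 1.91 ± 0.33 and 2.02 ± 0.29.

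In the authors' deposited table, whose log2 values have no background subtracted, the differences were smaller. They were 1.58 for H2-Aa, 2.27 for H2-Ab1 on the same probe, 2.17 for H2-Eb1, 1.30 for H2-DMa, 1.28 for H2-DMb1, 1.07 for H2-DMb2 and 2.19 for Cd74 in the authors' deposited table. The gap between the scales was widest for H2-Aa, whose deposited PBS signals of 144.5 to 252.3 lay near the median deposited signal of 118.9. For H2-Ab1, with deposited PBS signals of 443.7 to 1245.8, the scales were closer. The order of the members by difference therefore depends on the scale, with Cd74 below H2-Aa and H2-Eb1 on the corrected scale and above them in the authors' deposited table.

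**Figure D2:**
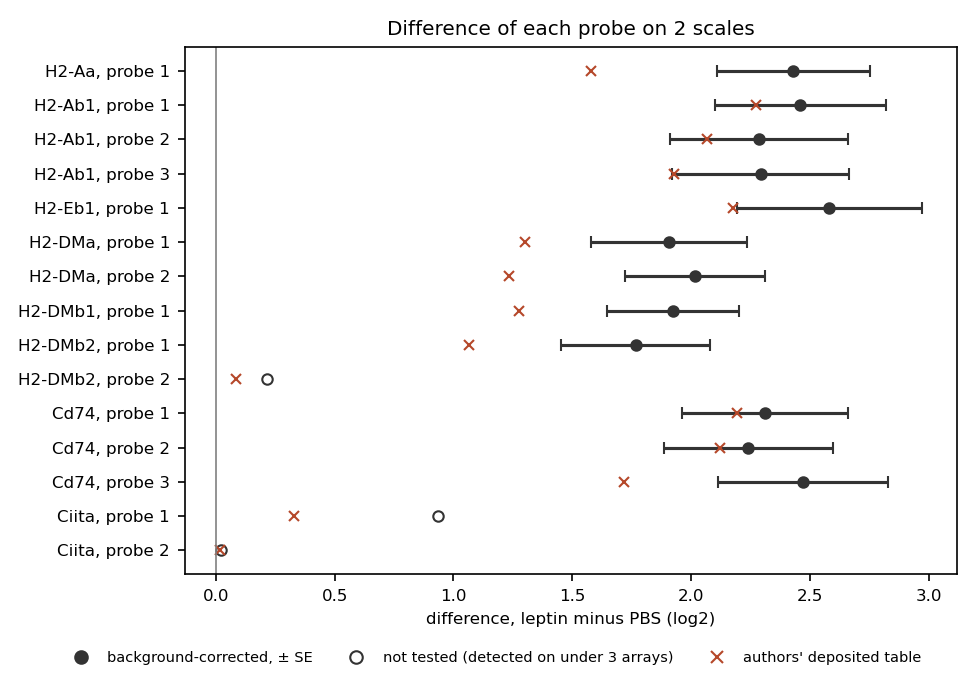
Difference, leptin minus PBS (log2), of each of the 15 probes: filled points with bars are background-corrected values ± SE, open points are probes detected on fewer than 3 arrays, and crosses are the authors' deposited differences. All 12 widely detected probes lie at 1.77 or above on the corrected scale, and the crosses lie to their left.

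The members varied more between arrays of one group than most genes did. Their median SD was 0.63 among leptin arrays and 0.76 among PBS arrays, against 0.26 and 0.28 for all genes tested. Among PBS arrays 2.61% of genes had a larger SD than H2-Eb1 and 22.5% a larger one than H2-DMb2, and among leptin arrays 3.79% had a larger one than H2-DMb2 and 11.9% than H2-Aa. The mean of H2-Aa, H2-Ab1, H2-Eb1 and Cd74 was 10.49, 10.52, 10.45, 11.72, 11.58 and 10.49 on leptin arrays 1 to 6, against 7.48, 7.75, 9.28, 8.0, 8.90 and 9.18 on PBS arrays 1 to 6. Leptin 1, 2, 3 and 6 thus lay close together, with leptin 4 and 5 above them, while the PBS arrays fell into PBS 3, 5 and 6 above PBS 1, 2 and 4. With leptin 4 and 5 both left out, a setting chosen after seeing the data, the differences were 2.13 for H2-Aa, 2.06 for H2-Ab1, 2.11 for H2-Eb1, 1.92 for Cd74, 1.49 for H2-DMa, 1.55 for H2-DMb1 and 1.29 for H2-DMb2.

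Variation between arrays of one group was not used to choose the members. Within the PBS group, Cd74 followed the classical chain H2-Ab1 from array to array. Its Pearson correlation with H2-Ab1 was 0.96 and Spearman's rho was 1 (n = 6, exact two-sided permutation p = 0.00278 for each). Adjusted over the 10 relations computed, 5 in each group, these became 0.0278 for r and 0.0139 for rho, and r was 0.96 without PBS 3 and PBS 6, the arrays farthest from the median of Cd74. With H2-Eb1 r was 0.93 and rho 1 (adjusted exact permutation p = 0.0602 and 0.0139, r = 0.96 without those arrays). With H2-Aa both were 0.94 (adjusted exact permutation p = 0.0602 and 0.0556, r = 0.99 without them).

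H2-DMa and H2-DMb1 had lower coefficients within PBS. The difference between chains was not tested, and H2-DMb2 was not among the relations computed. For H2-DMa r was 0.83 and rho 0.77 (adjusted exact permutation p = 0.0694 and 0.257), and for H2-DMb1 r was 0.69 and rho 0.66 (adjusted exact permutation p = 0.131 and 0.292). Without PBS 3 and PBS 6 these r values were 0.70 and 0.51. All relations compare genes on the same arrays, and for the classical chains PBS 3, 5 and 6 stood apart from PBS 1, 2 and 4. In the leptin group arrays 4 and 5 formed a cluster of their own, with 66.4% of the range of Cd74 empty below them, so no pooled coefficient is given there. The 5 leptin relations did not pass after adjustment (exact permutation, adjusted p 0.0655 to 0.0694 for r and 0.292 to 0.419 for rho), and over the other 4 leptin arrays r was negative, from -0.89 to -0.42.

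Over all 12 arrays, with each group centred on its own mean, H2-DMa had a Pearson correlation of 0.87 with the mean of H2-Aa, H2-Ab1, H2-Eb1 and Cd74, H2-DMb1 one of 0.83 and H2-DMb2 one of 0.76. H2-DMa was the closest of all genes outside those 4, H2-DMb1 was 10th and H2-DMb2 30th in the order of 8819 genes. This is a description, as the genes share arrays, and 4.48% of all genes had a value above 0.5. The 8 genes outside the member list with the highest values were Lbh (0.86), Epha2 (0.85), Tlr7 (0.84), Ttll1 (0.83), Cep63 (0.82), Mrvi1 (0.81), Ccdc43 (0.81) and Sgcb (0.81). Tlr7 encodes a Toll-like receptor for single-stranded RNA and Epha2 an ephrin receptor.

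By group, 3 of these 8 genes passed the test. Lbh rose by 1.32 ± 0.21 (SE, adjusted p = 0.00157), Tlr7 by 0.77 ± 0.18 (adjusted p = 0.0110) and Sgcb, a sarcoglycan, by 0.64 ± 0.13 (adjusted p = 0.00555). Epha2 differed by -0.01 ± 0.29 (adjusted p = 0.984), and the other 4 did not pass. Of these 8 genes, 5 were among the top 8 with the deposited log2 values, 7 with cyclic loess and 6 with the mean over probes.

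**Figure D3:**
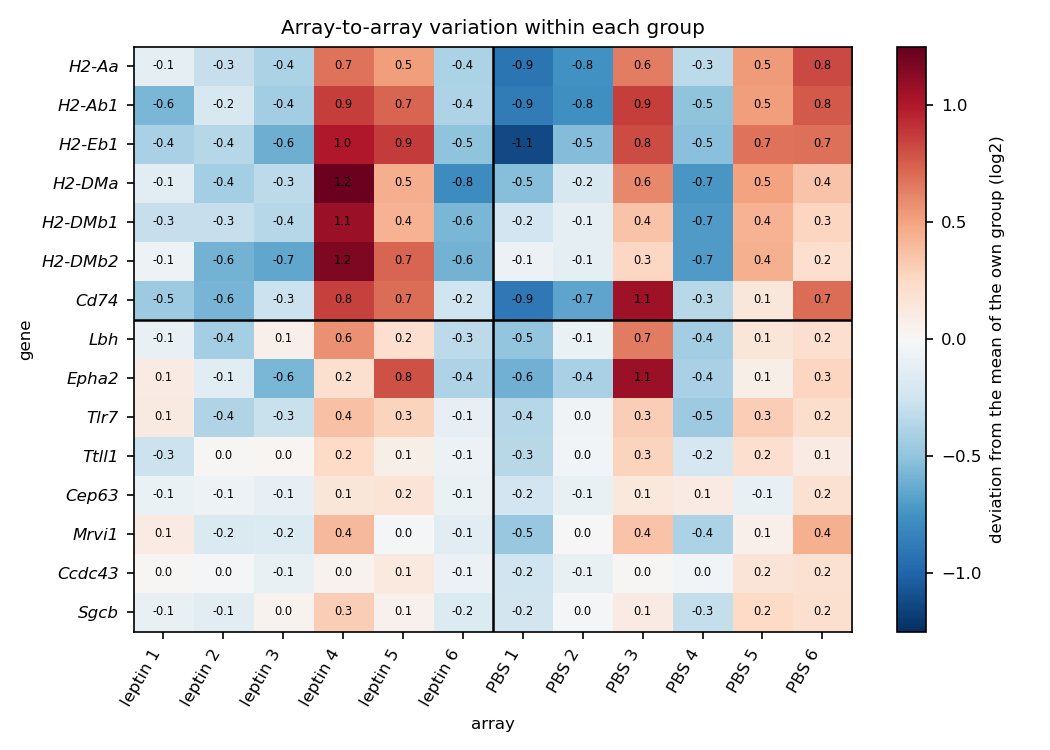
Deviation of each array from the mean of its own group (log2, red above and blue below), for the 7 tested members above the line and for the 8 other genes whose pattern was most like theirs below it, with the leptin arrays left of the PBS arrays. Leptin 4 and 5 and PBS 3, 5 and 6 are above their group means in all 7 members.

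The other genes of class II presentation and peptide processing were measured to see whether they moved with the members. Of 11 tested, 1 rose and 1 fell, with a median difference of 0.40. The protease Ctsl (cathepsin L) fell, with 6.17 ± 0.35 with leptin and 7.13 ± 0.27 with PBS, a difference of -0.96 ± 0.17 (adjusted p = 0.00301). Ctsb (cathepsin B) rose by 0.51 ± 0.12 (adjusted p = 0.0152), a call lost with leptin 4 and 5 both left out (adjusted p = 0.0655), and its other probe did not pass. Ctss, cathepsin S, which trims the invariant chain, differed by 0.40 ± 0.16 (adjusted p = 0.104). H2-Eb2 and H2-Ob were detected on 0 arrays and H2-Oa on 1, so the H2-O inhibitor of H2-DM was not detectable here. Without PBS 2 the list had 2 rises.

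Among 7 tested factors of the class II promoter, 1 was higher and 1 lower, with a median difference of -0.08. Irf8, a factor of myeloid and B cells, had 6.40 ± 0.59 with leptin and 5.51 ± 0.31 with PBS, a difference of 0.90 ± 0.24 (adjusted p = 0.0241). That call was lost without leptin 5 or without PBS 1 (adjusted p 0.0516 to 0.0546). It was also lost with the deposited log2 values, with no filter on detection and with both leptin 4 and 5 left out (limma, adjusted p 0.0532 to 0.0609). Rfxank, a subunit of the RFX complex on the X box, was detected on 0 leptin and 4 PBS arrays. Counted at the detection bound, it was 1.08-fold lower with leptin, and its limma adjusted p of 0.0336 belongs to the fitted difference. Its call was lost without any 1 of 7 arrays, leptin 1, 3, 4 and 6 and PBS 2, 4 and 5 (adjusted p 0.0529 to 0.0700). The deposited log2 values, no filter on detection, the authors' deposited p-values and leaving out leptin 4 and 5 together also ended it. Rfxank entered the test only through the PBS arrays, and with detection required on at least 6 arrays the list had 0 falls. Rfx5, Nfya and Creb1 were detected on 0 arrays, and Nlrc5, which does for class I genes what Ciita does for class II, differed by 0.38 ± 0.16 (adjusted p = 0.122).

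Of 8 tested genes on the path from interferon gamma to Ciita, 2 rose and 0 fell by limma, where 8.31% of all genes rose and 8.40% fell. At an unadjusted p under 0.05 they were 5 and 0, and the median difference was 0.36. No share of all genes at an unadjusted p under 0.05 is given, here or for the lists below. Ifngr1, a chain of the interferon gamma receptor, rose by 0.76 ± 0.20 (7.90 ± 0.48 with leptin, 7.14 ± 0.19 with PBS, adjusted p = 0.0189), and Irf2 by 0.75 ± 0.20 (adjusted p = 0.0223). Irf1 differed by 0.79 ± 0.34 on its brightest probe (adjusted p = 0.126). Without PBS 2, on which Irf1 stood at 11.34 against 9.72 on the next PBS array, the difference was 1.10 (adjusted p = 0.0077). Its other probes detected on all arrays differed by 0.60, 0.28 and 0.24 over the 12 arrays and did not pass (limma, adjusted p 0.259 to 0.635). Ifng itself, Socs1 and Ptpn2 were detected on 0 arrays.

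The list of genes that interferon gamma induces had 17 tested members. Of these, 7 rose and 0 fell by limma, where 8.31% of all genes rose and 8.40% fell. At an unadjusted p under 0.05 they were 14 and 0, counts with no share of all genes beside them. All 17 had a positive fitted difference, with a median of 0.87 against 0.0039 over all genes tested. One of them, Tgtp1, did not pass and was detected on 0 PBS arrays. The list was drawn up with earlier results of these arrays known, so this is no independent evidence of direction. Cxcl9, a T cell chemokine, had 11.62, 10.64, 11.22, 13.35, 11.45 and 10.49 on leptin arrays 1 to 6, against 7.17, 11.06, 8.72, 8.11, 8.15 and 9.29 on PBS arrays 1 to 6, a difference of 2.71 ± 0.59 (adjusted p = 0.00875). Its groups overlapped, since PBS 2 lay above leptin 2 and 6, whereas the classical class II chains were low on PBS 2. Psmb9, an immunoproteasome subunit, rose by 1.48 ± 0.22 (adjusted p = 0.000994) and Tap1, a peptide transporter of the class I path, by 1.39 ± 0.23 (adjusted p = 0.00173), and neither had overlapping groups. Gbp3, a guanylate-binding protein, rose by 1.37 ± 0.34 (adjusted p = 0.0161), a call lost with leptin 4 and 5 both left out (adjusted p = 0.0546).

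Psmb8, Tap2 and the class I heavy chain H2-K1 also passed, by 0.67 to 1.01, Psmb8 on 1 of its 2 probes. Of the H2-K1 probes, 2 were higher and 1 lower with leptin, each past the threshold, so its direction depends on the probe. Psmb8, Psmb9, Tap1 and Tap2 lie on chromosome 17 within the class II region, between H2-DMb1 and H2-Ob in the RefSeq table. With leptin 4 and 5 both left out, 4 of the 17 rose.

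Of 6 tested genes of co-stimulation and class II receptors, 1 rose and 1 fell, with a median of 0.44. Cd86, a co-stimulatory ligand of antigen-presenting cells, had 7.96, 7.90, 8.14, 8.84, 8.33 and 7.42 with leptin, against 6.91, 7.09, 6.69, 6.15, 7.33 and 6.62 with PBS. The groups did not overlap, and the difference was 1.30 ± 0.23 (adjusted p = 0.00295), with 1 of its 3 probes not passing. Lag3, an inhibitory receptor for class II, fell by 1.06 ± 0.27 on the log2 scale (adjusted p = 0.0199) and was detected on 3 leptin and 6 PBS arrays, a call lost with leptin 4 and 5 both left out (adjusted p = 0.0538). Over these 5 lists together, 12 of 49 tested genes rose and 3 fell, with a median of 0.42, where 8.31% of all genes rose and 8.40% fell. The counts were 7 and 1 with leptin 4 and 5 both left out, and without PBS 2 the co-stimulation list had 2 rises.

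In whole liver, a change in the number of cells of a type and a change in RNA per cell cannot be told apart. Some markers of leukocytes were also higher with leptin. Over the 7 leukocyte lists, 16 of 35 tested genes rose and 0 fell by limma, where 8.31% of all genes rose and 8.40% fell. The other 19 of the 35 did not pass. The median difference was 0.92, or 0.85 with the 4 genes undetected on every PBS array set to their bounds (Cx3cr1, which has none, to 0). At an unadjusted p under 0.05, 20 were higher and 0 lower. The 4 genes undetected on every PBS array entered the test only through the leptin arrays and are among the 16 rises. With detection required on at least 6 arrays 12 genes rose. The rises numbered 10 without leptin 5, PBS 4 or PBS 6, and 9 with leptin 4 and 5 both left out. Their part in the members' differences was not tested. Of the pan-leukocyte markers, 4 of 6 rose, and the summed normalized intensity of the 6 was 3542 to 12111 on leptin arrays and 1558 to 5695 on PBS arrays. Ptprc, the leukocyte common antigen CD45, was detected on 0 arrays.

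Cd52, a surface glycopeptide of lymphocytes and macrophages, had the greatest difference of these markers. Its values were 10.07, 9.79, 10.28, 12.03, 10.88 and 9.56 with leptin, against 8.09, 9.82, 8.40, 7.72, 8.39 and 8.54 with PBS, a difference of 1.94 ± 0.41 (adjusted p = 0.00736). Leptin 4 was highest, as for the members, but PBS 2 was the highest PBS array, where the classical class II chains were low. Coro1a, Laptm5 and Cd53 rose by 1.54 ± 0.42, 0.97 ± 0.31 and 0.96 ± 0.27 (adjusted p 0.0258, 0.0452 and 0.0289). Coro1a did not pass on every probe (limma, adjusted p up to 0.167) or with the mean over probes (0.0558). All these calls ended with no filter on detection. Those of Laptm5 and Cd53 also ended with the deposited log2 values and with the replicate block (limma, adjusted p 0.0540 to 0.0697). Removing any 1 of leptin 5 and PBS 1, 4, 5 and 6 ended the Coro1a call (adjusted p 0.0505 to 0.0564). The Cd53 call ended without leptin 5, PBS 4 or PBS 6 (0.0590 to 0.0638). The Laptm5 call was lost without any 1 of the 10 arrays other than leptin 2 and PBS 2 (0.0508 to 0.0952). As a result 1 of the 6 rose without leptin 5, without PBS 4, without PBS 6 or with leptin 4 and 5 both left out, and 2 without PBS 1 or PBS 5.

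Kupffer cell and macrophage markers rose in 5 of 11 tested, with a median of 0.88 and summed intensities of 9758 to 25810 with leptin and 6442 to 14151 with PBS. Clec4f, a lectin of Kupffer cells, had 10.69, 10.72, 10.99, 11.09, 11.36 and 10.81 with leptin, against 9.76, 9.63, 10.17, 9.71, 10.63 and 9.94 with PBS. Its groups did not overlap, and it differed by 0.97 ± 0.18 (adjusted p = 0.00331). Its group-centred correlation with the mean of the 4 class II genes was 0.73, against a median of 0.27 over the list, and Folr2, C1qa and Timd4 had 0.26, 0.28 and 0.13. Among leptin arrays alone, where leptin 4 and 5 form a cluster, Clec4f, Folr2, C1qa and Timd4 had 0.81, 0.75, 0.90 and 0.81. Among PBS arrays alone, in the same order, they had 0.68, -0.10, -0.45 and -0.39. Folr2, a folate receptor of resident macrophages, rose by 1.48 ± 0.24 (adjusted p = 0.00159) and C1qa, a complement subunit, by 1.0 ± 0.25 (adjusted p = 0.0153).

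Timd4, a phosphatidylserine receptor of resident macrophages, rose by 1.06 ± 0.32 (adjusted p = 0.0362), a call lost without any 1 of leptin 1, 3 and 5 and PBS 1, 3, 4, 5 and 6 (0.0514 to 0.0754). The deposited log2 values, no filter on detection, the replicate block, the authors' deposited p-values and leaving out leptin 4 and 5 together also ended that call. The count for the list was 9 without PBS 2. It was 3 without any 1 of leptin 1, 3 and 5 and PBS 1, 3, 4, 5 and 6, and 3 with leptin 4 and 5 both left out. Cd5l was detected on 0 arrays. Of 3 tested monocyte markers only Cx3cr1, a chemokine receptor, passed, higher with leptin (adjusted p = 0.0447), and that call was lost without any 1 of leptin 1, 4, 5 and 6 and PBS 1, 4, 5 and 6 (0.0623 to 0.0909). The deposited log2 values, no filter on detection, array weights, the replicate block and leaving out leptin 4 and 5 together also ended it. Cx3cr1 was detected on 3 leptin and 0 PBS arrays, so it entered the test only through the leptin arrays and gives no fold difference. With detection required on at least 6 arrays the monocyte list had 0 rises. The summed monocyte markers were 7461 to 44199 with leptin and 4016 to 18506 with PBS.

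T and NK cell markers rose in 4 of 5 tested, with summed intensities of 654 to 1254 with leptin and 484 to 912 with PBS. Thy1, a T cell surface protein, had 6.31, 6.70, 6.87, 7.63, 6.74 and 6.46 with leptin, against 4.46, 5.48, 5.41, 4.75, 5.92 and 5.91 with PBS. The groups did not overlap, and the difference was 1.46 ± 0.28 (adjusted p = 0.00379). Cd3e and Cd3g, chains of the T cell receptor complex, were detected on 0 PBS arrays. Counted at the detection bound, they were 1.04-fold and 1.12-fold higher with leptin. Their limma adjusted p-values, 0.00263 and 0.0137, belong to the fitted differences and not to these bounds. Cd3d rose by 1.07 ± 0.29 (adjusted p = 0.0241). The Cd3d call was lost with the deposited log2 values, with no filter on detection and with leptin 4 and 5 both left out (0.0530 to 0.0655). Cd3e and Cd3g entered the test only through the leptin arrays, and with detection required on at least 6 arrays the list had 2 rises. Cd8a, Klrb1c, Ncr1 and Il2rb were detected on 0 arrays.

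Markers of the professional class II carriers were mostly below detection. Of 11 dendritic cell markers, Itgax, Flt3, Xcr1, Cd209a, Siglech, Ccr7 and Clec10a were detected on 0 arrays, and of the 2 tested 0 passed by limma, 0 at an unadjusted p under 0.05 and 0 by the authors' deposited p-values (1 gene of the list passed with no filter on detection), with Batf3 at 0.67 ± 0.36 (adjusted p = 0.224) and Itgae at 0.14 ± 0.17 (adjusted p = 0.598). Their summed intensity was 58 to 172 with leptin and 51 to 111 with PBS. Clec9a, a marker of cross-presenting dendritic cells, was detected on leptin 4 and 5 alone, as Ciita was. Of 9 B cell markers on the array, Ms4a1, Pax5, Blk, Fcer2a, Cr2, Cd22 and Cd37 were detected on 0 arrays.

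The other 2 B cell markers both passed upward, with a summed intensity of 90 to 153 on leptin arrays and 48 to 76 on PBS arrays. They were tested because of their detection on leptin arrays, so the count itself supports nothing, and with detection required on at least 6 arrays 1 was left and rose. Fcmr, an IgM receptor, was detected on 5 leptin and 0 PBS arrays and, counted at the detection bound, was 1.22-fold higher with leptin. Its limma adjusted p of 0.000515 belongs to the fitted difference and not to this bound. Cd79b, a B cell receptor chain, was above background on 6 leptin arrays but just 1 PBS array, and rose by 0.93 ± 0.20 (adjusted p = 0.00738). It had 5.68, 5.84, 5.86, 6.52, 5.78 and 5.78 with leptin, against 5.09, 5.64, 5.15, 4.5, 4.85 and 4.61 with PBS, without overlap.

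Neutrophil markers passed in 0 of 6 tested by limma, in 0 at an unadjusted p under 0.05 and in 0 by the authors' deposited p-values, with a median of 0.43 and summed intensities of 250 to 7705 with leptin and 231 to 7083 with PBS. S100a9, a calcium-binding protein of neutrophils, differed by 1.15 ± 0.93 (adjusted p = 0.416). Of 9 tested markers of sinusoidal endothelium 2 rose, Cdh5 by 1.03 ± 0.23 (adjusted p = 0.00958) and the scavenger receptor Stab2 by 0.58 ± 0.15 (adjusted p = 0.0174), with summed intensities of 7099 to 9987 with leptin and 4854 to 9780 with PBS. The endothelial count was 4 without PBS 6, 4 with the mean over probes and 5 with probes tested singly. In that last setting a dimmer probe each of Stab1, Pecam1 and Fcgr2b passed upward (limma, adjusted p = 0.00226, 0.0199 and 0.00957). Of 7 tested stellate cell markers only Hgf, a growth factor, rose (0.75 ± 0.20, adjusted p = 0.0244), a call lost without leptin 1, leptin 5 or PBS 5 (0.0503 to 0.0549), and the count was 2 without leptin 4, leptin 6 or PBS 6 and 3 without PBS 3. The Hgf call was also lost with no filter on detection and with leptin 4 and 5 both left out.

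Of 9 hepatocyte markers on the array, 8 were detected on 12 of 12 arrays and tested, and Fgb was detected on 1 array. Alb, on its 1 probe, was dim, at 6.27 ± 0.19 with leptin and 7.10 ± 0.66 with PBS, where the lowest detected signal of an array was 5.18 to 5.44. The other tested markers had group means from 12.50 (Apob, PBS) to 15.27 (Apoa1, PBS). Whether the Alb probe reports albumin transcript was not tested, and nothing about albumin is read from it. Of the 8, 1 rose and 2 fell, the Alb probe among the falls, with a median of -0.04. Ass1, a urea cycle enzyme, fell by 0.72 ± 0.13 on the log2 scale (adjusted p = 0.00286), and Serpina1a, an antitrypsin, rose by 0.46 ± 0.12 (adjusted p = 0.0181) on 1 of its 2 probes. The probe annotated to Alb, the albumin gene, differed by -0.83 ± 0.25 (adjusted p = 0.0374), a call lost without any 1 of the 10 arrays other than leptin 1 and PBS 2 (0.0554 to 0.0803). That call was also lost with no filter on detection and with leptin 4 and 5 both left out. Over all 10 cell type lists 20 of 59 tested genes rose and 2 fell, where 8.31% of all genes rose and 8.40% fell. The median of the 59 was 0.64, or 0.51 with the 4 genes at their bounds. The rises numbered 16 with detection required on at least 6 arrays, 13 without leptin 5 and 12 with leptin 4 and 5 both left out.

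**Figure D4:**
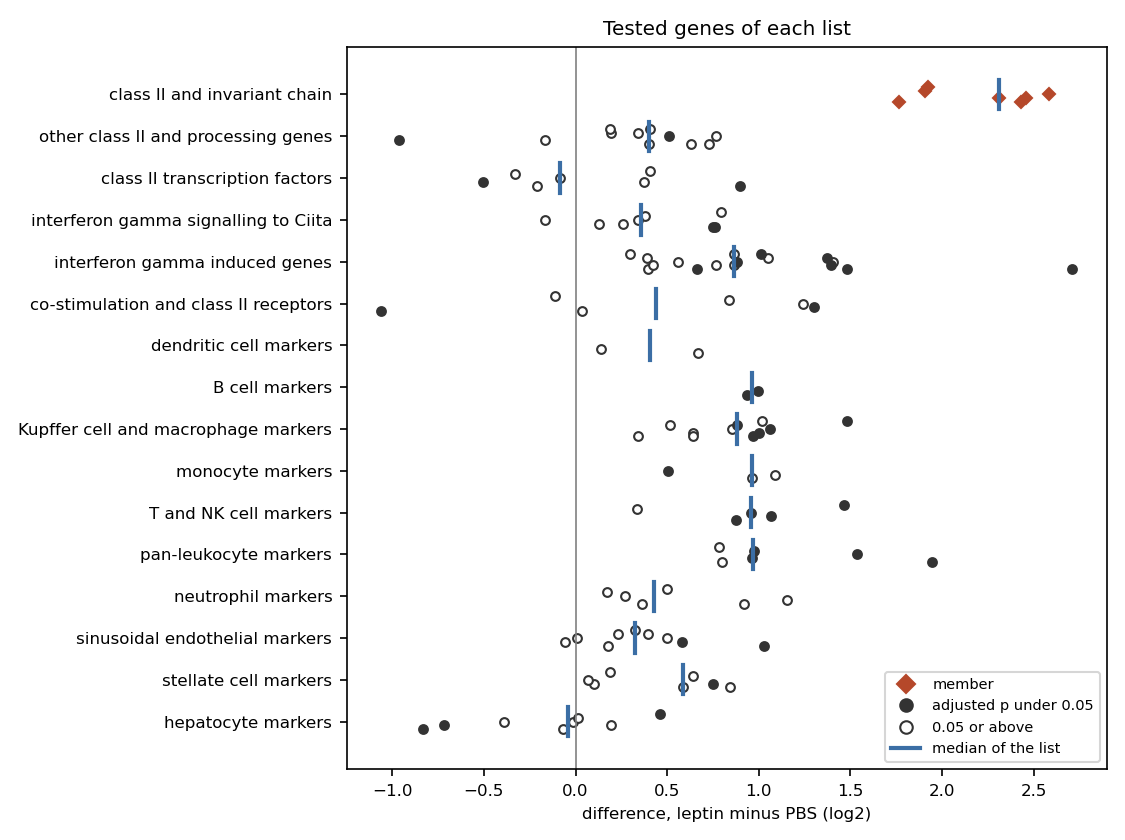
Difference, leptin minus PBS (log2), of every tested gene of each list, with members as red diamonds, filled circles for an adjusted p under 0.05, open circles for others and a blue bar at the median of each list; genes undetected on a whole group are drawn at their fitted difference. The members lie between 1.77 and 2.58 with a median of 2.31, the interferon gamma induced genes have a median of 0.87 and the hepatocyte markers one of -0.04.

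Between 13159 and 14431 of 45281 probes were detected per array, and the closest 2 arrays still differed by a median of 0.218 (absolute, log2), so none looked like a copy of another. Leptin 4, high for every member, had a mean correlation of 0.957 with its own group across probes, against 0.965 to 0.976 for the other 11 arrays. Probes detected on leptin 4 and 5 and nowhere else numbered 69, or 0.152% of all, the most for any of the 66 pairs of arrays, whose median was 8 and next value 40. Of these, 62 had 1 symbol, and 7 of the listed genes were among them, Cd2, Cd40, Cd80, Ciita, Clec9a, Csf3r and Nkg7, each by at least 1 probe.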

How the data were processed

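Biotinylated cRNA from total RNA of 12 mouse liver samples was hybridized to Illumina Mouse-6 V2 BeadChips, and arrays were grouped by the labels' sample group. Per the file headers, the deposited table gives an average intensity and a detection p-value for each probe on each array. The deposited intensity values were already equal in distribution between arrays and had no background subtracted (lowest 95.9, median 118.9). The software used for this is not named in the labels or headers used here. The authors' log2 values equal log2 of these signals, and the authors' deposited Cyber-T table, per the file headers, holds the difference in mean log2 signal between groups and its p-value, unadjusted. Its 12 columns of single-sample signals were not used.

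Signals were background-corrected from the detection p-values with limma's nec (offset 16), quantile normalized and log2 transformed. Of 45281 probes, 34885 had 1 gene symbol in the platform annotation, 18 several and 10378 none. Probes with detection p under 0.01 on at least 3 of 12 arrays were kept (15062, of which 13068 had 1 symbol), and the brightest kept probe stood for each of 8819 genes. Leptin was set against PBS by limma's lmFit and eBayes, two-sided, with p-values adjusted by Benjamini-Hochberg over all 8819 genes (threshold 0.05), and the fit was tested on simulated data. Where a group had no array with detection, the difference is a bound, computed against each array's lowest detected signal or the probe's own value, whichever was higher. The bound averages all arrays of the other group, undetected ones included, and a p-value given beside it belongs to the fitted difference. A summed intensity is the sum of the unlogged normalized levels of a list's tested genes. The columns used here name no slides or scans, and batches were not tested. Names and intervals of genes came from RefSeq tables of GRCm38.p6, and the array files name no build.

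The members and the 15 gene lists were chosen with earlier results of these data known. The named genes are every member, up to 4 called genes of each list with the greatest difference (up to 2 where none was called), 10 genes fixed by name, of which 1 is not reported here, and the 8 genes most like the members within groups. H2-Ea, other genes given only as undetected, Psmb8, Tap2 and H2-K1 were named after their values were seen. Alternatives were the deposited log2 values, cyclic loess, detection filters, probe rules, an intensity trend, the replicate number as a block, array weights, Cyber-T's p-values and the removal of each array, plus leptin 4 and 5 together, chosen after seeing the data. R 4.3.3, limma 3.58.1, Python 3.11.15, Biopython 1.88 and matplotlib 3.10.9 were used.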

Additional observations from a re-analysis of the deposited data

Results flagged for a closer look

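Among the genes named, 120 sets of 6 arrays were examined for a single array far from the other 5, by Dixon's ratio of gap to range, and 9 passed its critical value (7.5%). Chance gives about 1 in 20. No set of class II or invariant chain values was among them. PBS 2 accounted for 6. It was the highest PBS array for Irf1 at 11.34 (log2, the next array at 9.72), Batf3 at 6.42 (next 5.24), Timd4 at 7.12 (next 5.97), C1qa at 9.61 (next 8.84) and Coro1a at 9.03 (next 7.24), and the lowest for Alb at 5.77 (next 7.15). On that array the mean of H2-Aa, H2-Ab1, H2-Eb1 and Cd74 was 7.75, below 4 of the other 5 PBS arrays. Leptin 4 accounted for the other 3, as the highest leptin array for Tap1 at 8.41 (next 7.36), Cd79b at 6.52 (next 5.86) and Timd4 at 8.15 (next 6.97). On leptin 4 the mean of the 4 class II genes was 11.72, the highest of all arrays.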

How the results depend on the processing

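The 7 tested members stayed higher with leptin under all 18 alternatives run on them. Their median of 2.31 was 1.58 with the deposited log2 values, and 2.13 to 2.52 when single arrays were left out. Of all genes, 733 rose and 741 fell. The falls numbered 1230 with probes tested singly, which tests more features, and 465 with the authors' p-values, where the cause was not tested. Leaving out single arrays gave 505 to 808 rises and 548 to 778 falls. The rises and falls over the pathway lists, 12 and 3, were 7 and 1 with leptin 4 and 5 both left out, a setting with fewer samples, and 10 to 18 and 2 to 3 with single arrays left out. The cell type lists had 20 rises, 12 with leptin 4 and 5 both left out and 13 to 26 with single arrays left out. They had 2 falls, 1 with no filter on detection, 1 with leptin 4 and 5 both left out and 1 to 2 with single arrays left out. Of 5 relations of Cd74 within PBS, 1 passed by Pearson's r, against 3 with the deposited values and 3 with the mean over probes. The cause was not tested. With the replicate number as a block, 695 genes rose and 689 fell, 11 and 3 in the pathway lists and 16 and 2 in the cell type lists, and the member median was 2.31. Same-numbered arrays had correlations of -0.317 to 0.456 (3 of 6 pairs above 0.1, and 4 of 12 arrays correlated best with their own number). Whether the numbers pair the samples was not tested. Of 33 named genes called, 17 kept their call under all 23 alternatives, 13 lost it under at least 1, and Fcmr, Cd3e and Cd3g kept it under the 22 that tested them, since detection on at least 6 arrays leaves them out. Among named genes not called, Itgae reversed from 0.14 to -0.0903 with no filter. S100a8, at 0.92 ± 1.03 in the main test (limma, adjusted p = 0.573), reversed to -0.19 with leptin 4 and 5 both left out. Genes near background, such as Ciita, are limited by the signal over it.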
